A study of Danio rerio with 28 samples.

Results

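Genes for lysosomal proteases, the lysosomal proton pump and lysosomal membrane and lipid-handling proteins were followed through heart regeneration in zebrafish. They were chosen by symbol alone: symbols that begin with *cts* and a letter (cathepsins), *lamp* and a digit, *atp6v0*, *atp6v1* or *atp6ap*, *laptm*, *npc1* or *npc2*, *gusb* or *lgmn*, or a further glycosidase prefix, together with *hexa* and *hexb*. The rule found 64 of 32520 listed genes, of which 18 were cathepsins, 9 and 13 encoded subunits of the V0 and V1 sectors of the proton pump, 5 encoded accessory proteins of the pump, 5 were LAMP and 3 LAPTM membrane proteins, 6 were glycosidases, 4 handled sterols and 1 was legumain. A few match by name only, among them *npc1l1*, a sterol importer of the cell surface. Where genes share a symbol, the last digits of the Ensembl identifier follow in parentheses, so that *npc2* (96979) is ENSDARG00000096979.

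Lysosomes are acidic organelles that break down proteins, lipids and sugars taken up from outside the cell or delivered by autophagy. The V-ATPase pumps protons into the lumen, cathepsins and legumain are proteases that work at the low pH this creates, glycosidases trim sugar chains, and NPC1 and NPC2 hand cholesterol out of the lumen. Macrophages, which clear debris from injured tissue, are rich in lysosomes, and cardiomyocytes use lysosomes to turn over their own contents.

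The study asked how loss of a thyroid hormone receptor gene, *thraa*, changes regeneration. Wild-type (WT) fish and fish heterozygous for an 8-bp insertion in *thraa* (thraa+/-, called KO in the labels of the time course) were 4 to 6 months old, and about 20% of the ventricular apex was resected. RNA was sequenced from the uninjured apex and from the injured zone at 8 h (hpi) and 1, 3, 7 and 15 days (dpi) after injury, in 2 libraries for each of the 12 groups, and from uninjured hearts of WT and homozygous mutant (thraa-/-) fish, in 2 libraries each. The last 4 libraries are titled entire heart and are called so here, but the methods describe harvested ventricles, so whether they hold other parts of the heart is not known. Each library pooled tissue of at least 5 fish, the mutation was in all cells of the mutant fish rather than in one cell type, and all time points of a genotype were compared with the same 2 uninjured libraries. In such bulk tissue, a change in the number of cells of a type and a change in RNA per cell cannot be told apart.

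Libraries held 13692204 to 18775025 gene counts in the time course and 13656671 to 16532401 in the entire hearts. Replicates were least alike between the thraa+/- libraries at 8 hpi, with a chi-square per degree of freedom of 23.9, against 8.68 in WT at 8 hpi, 15.4 in WT and 8.11 in thraa-/- entire hearts, and 1.88 for the closest pair. The mutated gene *thraa* (ENSDARG00000000151, annotated as *THRA*) had 2.56 to 5.51 CPM (library-scaled counts) in WT and 3.15 to 6.54 CPM in thraa+/- libraries of the time course, and was called between these genotypes at no time. In entire hearts it had 5.32 to 6.58 CPM in WT and 9.75 to 13.3 CPM in thraa-/- (log2 fold change 0.95 ± 0.22 (SE), adjusted p = 0.016), a call on the mutated gene itself that was lost without thraa-/- replicate 1 (0.72, adjusted p = 0.16) and on log2(TPM + 1) and log2(TPM + 0.1) (0.51 and 0.58). A small insertion need not change a read count, so these levels did not check the genotype. Summed cardiomyocyte markers (23 genes) took 230452 to 234866 CPM in uninjured WT apex and 68654 to 69381 CPM at 3 dpi. Summed skin and gill epithelial markers (18 genes) reached 9066 to 9319 CPM in thraa+/- libraries at 3 dpi. WT libraries held 6111 to 6148 CPM at that time and 3431 to 3495 CPM in uninjured apex. At 1 dpi the sums were 8454 to 8481 CPM in thraa+/- and 4576 to 4680 CPM in WT.

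Fold changes came from counts scaled by the trimmed mean of M-values (TMM). Scaling by total counts instead raised the log2 fold change of the median gene against uninjured apex by 0.51 to 0.85 in WT and 0.41 to 0.89 in thraa+/-, but moved that median by 0.10 or less between genotypes at one time. In the entire hearts, total-count scaling moved the median of thraa-/- against WT by −0.25. Counts against uninjured apex and in the entire hearts are therefore given under both scalings. Shares of all genes were taken with TMM scaling only, so no total-count number of calls below can be set against them. A gene was called when the edgeR quasi-likelihood test gave an adjusted p under 0.05 (Benjamini-Hochberg, over 17837 tested genes) and the change was at least 2-fold, or at least 1.5-fold in the entire hearts (15793 tested genes). Of the 64 genes, 57 passed the filter on low counts in the time course and 52 in the entire hearts. *lamp5* and *atp6ap1la* had no count in any time-course library.

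In uninjured WT apex the 64 genes summed to 1616 and 1619 TPM (length-scaled transcript abundance, as a share of each library) in the replicates, and 33 of them had a mean of at least 10 TPM while 14 were under 1 TPM. The 5 highest by TPM were *ctsla*, *atp6v0c* (57853), *ctsd*, *atp6v1g1* and *laptm4a*. *ctsla* (ENSDARG00000007836), a cathepsin L, a cysteine protease, had 203 and 196 TPM. *atp6v0c* (57853), which encodes the proteolipid of the proton-conducting ring, had 126 and 135 TPM, and *ctsd* (ENSDARG00000057698), an aspartic protease, had 94.9 and 96.9 TPM. *atp6v1g1*, a stalk subunit of the V1 sector, had 98.7 and 92.6 TPM, and *laptm4a*, a membrane protein of late endosomes and lysosomes, had 93.9 and 92.2 TPM. The order of the last 3 lay within the spread of their replicates. In uninjured thraa+/- apex the sum was lower, 1169 and 1182 TPM.

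By share of the transcriptome, the sum of the set rose after injury and peaked at a different time in the 2 genotypes. The WT libraries of 8 hpi held 1966 and 2045 TPM of the 64 genes, and those of 1 dpi 3784 and 3677 TPM. At their peak on day 3 they held 5580 and 5772 TPM, followed by 3462 and 3487 TPM on day 7, then 2563 and 2549 TPM at 15 dpi. The thraa+/- libraries of 8 hpi already held 3280 and 3113 TPM, and those of 1 dpi 5482 and 5446 TPM. Day 3 gave 4843 and 4761 TPM, day 7 gave 4005 and 4019 TPM, while 1750 and 1801 TPM were left by 15 dpi. Thus the highest libraries were those of 3 dpi in WT and those of 1 dpi in thraa+/-, and replicates lay far closer to each other than neighbouring time points did. Cathepsins gave the largest part, 587 and 573 TPM in uninjured WT apex, 2616 and 2693 TPM at 3 dpi in WT and 2884 and 2894 TPM at 1 dpi in thraa+/-. Members did not all share the peak of the sum. In thraa+/- mean *ctsb* was 846 TPM at 1 dpi and 379 TPM at 3 dpi, and *ctsla* 559 and 366 TPM. V1 subunits summed to 758 and 746 TPM at 1 dpi and 575 and 578 TPM at 3 dpi. By contrast, *ctsk* rose from 90.7 to 251 TPM and *npc2* (96979) from 186 to 335 TPM between these times. These sums carry no test and use TPM, which is not corrected for the shift of the median gene.

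In tests by gene, WT hearts at 8 hpi showed 3 of the 57 tested members higher and 8 lower than uninjured apex, against 16.5% and 12.5% of all tested genes. By 1 dpi 14 members were higher and 2 lower (14.8% and 10.8% of all genes). The 3 dpi libraries gave the most calls in WT, with 22 members higher and 2 lower (20.8% and 14.4%, or 35.2% of all genes called). One week after injury, 13 were higher and 6 lower (24.2% and 13.6%). The 15 dpi libraries left 7 higher and none lower (11.3% and 7.36%), and at the last 2 times the share of members called higher was close to that of all genes. Scaled by total counts the same libraries gave 10 higher and 1 lower at 8 hpi, and 26, 37, 24 and 15 higher with none lower at 1, 3, 7 and 15 dpi. The share of all genes was not taken under that scaling.

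In thraa+/- hearts 23 members were higher and 2 lower at 8 hpi, against 17.5% and 12.9% of all genes. With TMM scaling the 1 dpi libraries gave the most calls, 27 higher and 3 lower (16.8% and 13.8% of all genes). The counts were 24 higher and 3 lower on day 3 (19.2% and 12.7%), and 19 higher and 3 lower on day 7 (22.4% and 14.1%). By 15 dpi only 5 were higher and none lower (7.88% and 4%), a share close to that of all genes. The median log2 fold change of members was 0.76, 1.02, 0.76, 0.65 and 0.14 over these times, against 0.04, 0, 0.10, 0.14 and 0.04 for all tested genes. The WT medians were −0.38, 0.40, 0.61, 0.05 and 0.19, against 0.09, 0.08, 0.18, 0.22 and 0.08. Total-count scaling gave 33 higher and 2 lower at 8 hpi and 38 higher and 1 lower at 1 dpi in thraa+/-, then 40, 36 and 12 higher with none lower. Under that scaling the most calls fell at 3 dpi rather than 1 dpi.

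**Figure D1:**
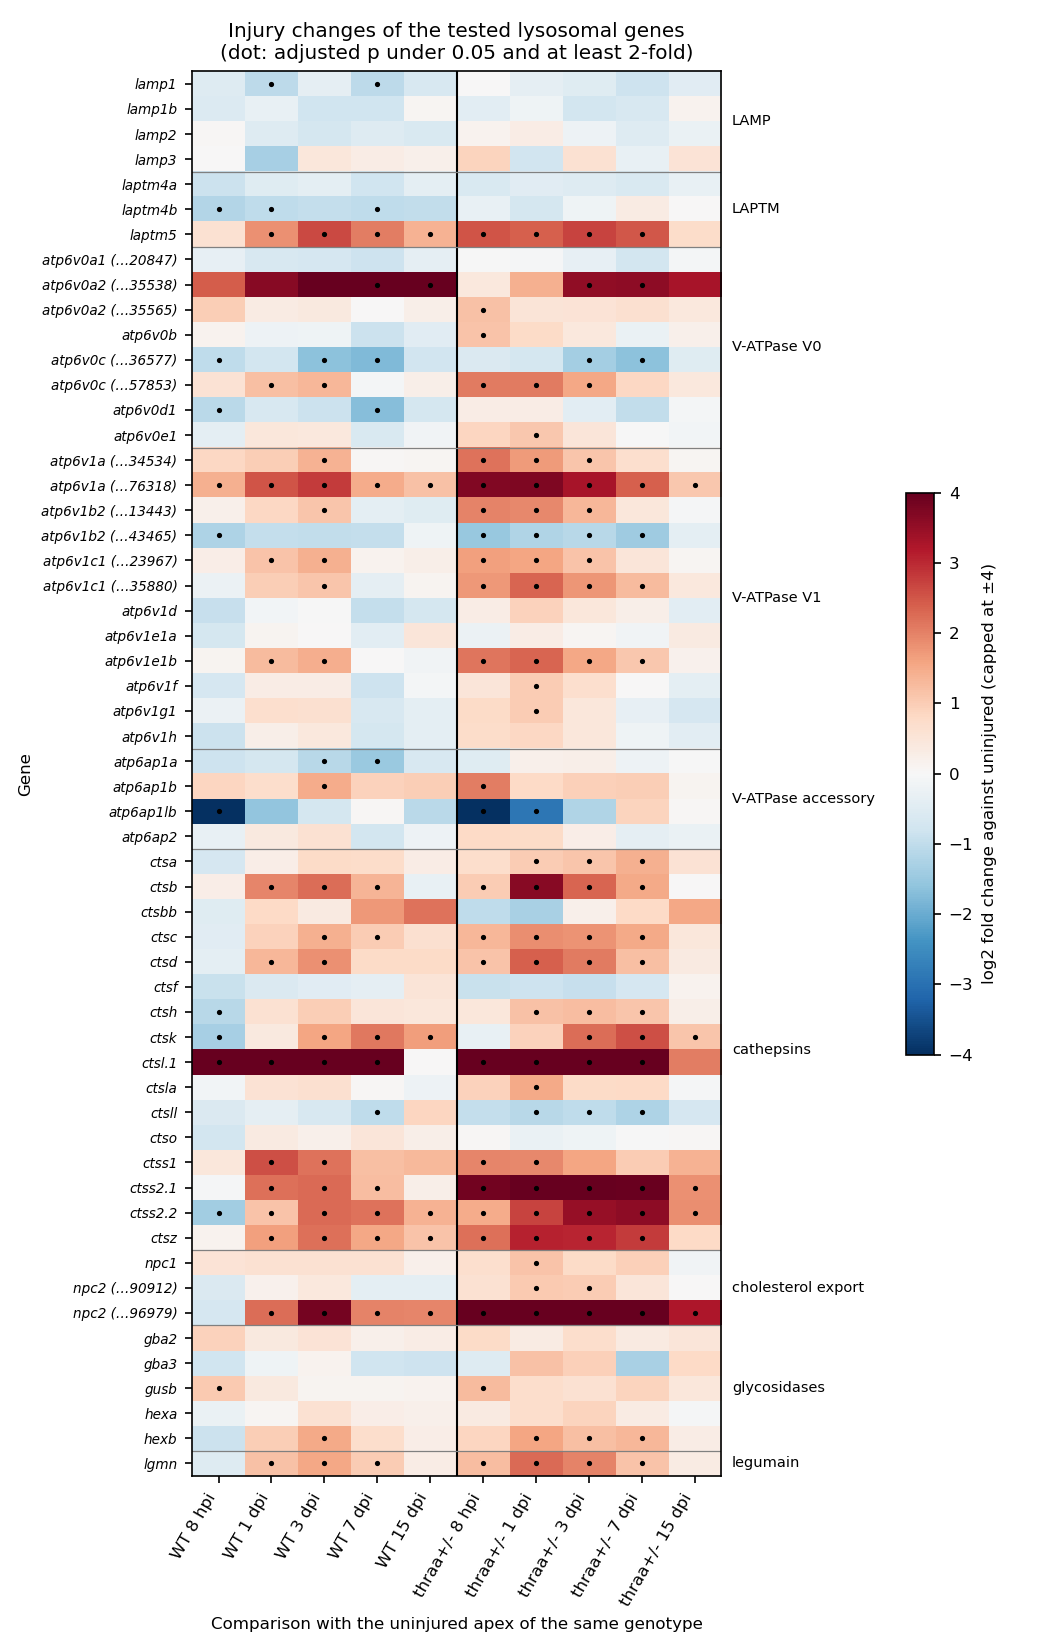
Log2 fold change of 56 of the 57 tested members (rows, grouped by class) at each time against the uninjured apex of the same genotype (columns), from TMM-scaled counts with 2 libraries a group. Red is higher and blue lower, colours are capped at ±4, and a dot marks an adjusted p under 0.05 with at least a 2-fold change; most cathepsin rows are red from 1 dpi, while LAMP and *laptm4a* rows carry few dots.

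Leukocyte markers also changed after injury. The summed macrophage markers were highest at 7 dpi in both genotypes, and *cd74a* and *cd74b* made up a large part of the 7 dpi sums. In WT these genes had means of 969 and 416 CPM at 7 dpi, against 339 and 204 CPM at 3 dpi. In thraa+/- they had 829 and 487 CPM, against 326 and 221 CPM. Other markers did not all share this peak: *c1qb* had 187 CPM at 3 dpi and 150 CPM at 7 dpi in WT, and 187 and 216 CPM in thraa+/-. The summed macrophage markers (28 genes) were 741 to 748 CPM in uninjured WT apex and 413 to 436 CPM at 8 hpi. They were 1198 to 1287 CPM at 1 dpi, 2401 to 2489 CPM at 3 dpi and 2630 to 2653 CPM at 7 dpi. At 8 hpi in WT, *cd74a* (mean 315 to 72.5 CPM) and *cd74b* (153 to 49.0 CPM) together fell by more than the whole sum did. The other markers went both ways. Summed pan-leukocyte markers were 127 to 140 CPM in uninjured WT and 281 to 300 CPM at 8 hpi. Neutrophil markers were 419 to 430 CPM and 657 to 727 CPM. The pan-leukocyte sums were highest at 3 dpi in WT, with 1034 to 1048 CPM, against 580 to 581 CPM at 7 dpi. In thraa+/- the pan-leukocyte sums were 831 to 889 CPM at 8 hpi, 849 to 879 CPM at 1 dpi and 688 to 704 CPM at 7 dpi. In thraa+/- the macrophage sums were 408 to 410 CPM uninjured, 1113 to 1285 CPM at 8 hpi and 1980 to 1985 CPM at 1 dpi. They reached 2535 to 2590 CPM at 3 dpi and 3030 to 3071 CPM at 7 dpi. *apoeb* alone had a mean of 680 CPM in thraa+/- at 1 dpi, against 113 CPM in WT. Of the 28 macrophage markers, 4 had no count in uninjured WT (*csf1rb*, *fcer1g* and a copy each of *mpeg1* and *mfap4*). At 3 dpi in WT, 19 of the 25 tested macrophage markers were higher, as were 9 of 9 tested pan-leukocyte markers and 7 of 9 tested neutrophil markers. Their part in the changes of the lysosomal genes was not tested.

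Among the cysteine cathepsins, *ctsb* (ENSDARG00000055120), a cathepsin B, rose at 1 dpi in both genotypes and rose further in thraa+/-. Its level was 103 and 98.8 CPM in uninjured WT, 382 and 390 CPM at 1 dpi, 480 and 464 CPM at 3 dpi and 85.6 and 78.1 CPM at 15 dpi. The thraa+/- level went from 88.3 and 85.5 CPM to 1073 and 1085 CPM at 1 dpi, then 436 and 431 CPM at 3 dpi and 88.8 and 88.7 CPM at 15 dpi. The thraa+/- libraries at 1 dpi were the highest of the 24, apart from all the others. The log2 fold change at 1 dpi was 1.94 in WT and 3.63 in thraa+/-. From 7 to 15 dpi *ctsb* fell by 1.67 ± 0.07 (SE) on the log2 scale in WT (adjusted p = 4e-23) and by 1.49 in thraa+/-.

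*ctss2.1* (ENSDARG00000074656) and *ctss2.2* (ENSDARG00000013771) encode cathepsin S proteases, which in mammals process antigens in phagocytes. *ctss2.1* had 40.8 and 42.7 CPM in uninjured WT, 37.9 and 43.7 CPM at 8 hpi and 198 and 201 CPM at 3 dpi. The gene started in thraa+/- at 8.85 and 10.7 CPM and reached 125 and 159 CPM at 8 hpi and 362 and 358 CPM at 1 dpi. The genotypes did not overlap in either the uninjured or the 8 hpi libraries, and their order was opposite at the 2 times. Against uninjured apex *ctss2.1* rose by 3.86 ± 0.12 at 8 hpi in thraa+/- (log2, SE, adjusted p = 9.9e-26), where the WT value was −0.03. *ctss2.2* fell at 8 hpi in WT, from 41 and 38.2 CPM to 13.6 and 16.8 CPM (log2 fold change −1.38 ± 0.10, adjusted p = 6.5e-16), a change of −0.86 and no longer a call with total counts. In thraa+/- the same gene rose at 8 hpi, from 20.5 and 18 CPM to 50.1 and 56.7 CPM, and it was highest at 7 dpi, with 226 and 238 CPM.

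*ctsk* (ENSDARG00000040251), a cathepsin K, a collagen-degrading protease best known from osteoclasts, was highest at 7 dpi. It went from 109 and 96.6 CPM in uninjured WT down to 38.5 and 43.1 CPM at 8 hpi, then up to 310 and 302 CPM at 3 dpi and 441 and 449 CPM at 7 dpi, and stood at 325 and 326 CPM at 15 dpi. In thraa+/- it had 74.8 and 75.1 CPM uninjured, 441 and 463 CPM at 7 dpi and 159 and 161 CPM at 15 dpi. In both genotypes the 7 dpi libraries were the highest and did not overlap those of any other time. At 15 dpi in WT the log2 fold change was 1.66 ± 0.08 (adjusted p = 4.9e-21), and from 7 to 15 dpi *ctsk* fell by 1.5 in thraa+/-. The fall at 8 hpi in WT (−1.33) was −0.81 and not a call with total counts.

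*ctsz* (ENSDARG00000043081), a carboxypeptidase of the cathepsin family, rose from 48.1 and 48.5 CPM in uninjured WT to 224 and 221 CPM at 3 dpi. Its thraa+/- level rose from 23.1 and 24.8 CPM to 108 and 114 CPM at 8 hpi and 202 and 200 CPM at 1 dpi, and dropped to 42.4 and 41.1 CPM at 15 dpi. The fall from 7 to 15 dpi in thraa+/- was 1.99 on the log2 scale, while WT libraries still held 111 and 104 CPM at 15 dpi. *ctsc*, a cathepsin C that activates serine proteases of leukocytes, rose at 3 dpi by 1.44 in WT and 1.81 in thraa+/-. *ctsla* rose past 2-fold only at 1 dpi in thraa+/- (1.52), from 263 and 256 CPM to 744 and 743 CPM, while its largest WT change in the time course was 0.64, at 3 dpi.

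The aspartic protease *ctsd* was the member with the highest CPM at 3 dpi in WT, with 829 and 824 CPM against 233 CPM in both uninjured libraries. In thraa+/- it peaked at 927 and 940 CPM at 1 dpi, from 181 and 172 CPM. *lgmn* (ENSDARG00000039150), legumain, which cleaves after asparagine and matures other proteases, followed the same course. It had 196 and 208 CPM in uninjured WT and 586 and 602 CPM at 3 dpi, and in thraa+/- 158 and 146 CPM uninjured and 741 and 730 CPM at 1 dpi. In both genes the 3 dpi libraries were the highest in WT and the 1 dpi libraries the highest in thraa+/-. The log2 fold changes at those times were 1.83 and 2.40 for *ctsd* and 1.56 and 2.28 for *lgmn*. Some smaller changes sat at the 2-fold limit: without thraa+/- 8 hpi replicate 2 the 8 hpi change was 0.97 for *ctsd* (1.15 with it) and 0.93 for *ctsb* (1.03 with it). In WT at 7 dpi *lgmn* (1.00) was 0.99 without 7 dpi replicate 1 and 0.93 without uninjured replicate 1.

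**Figure D2:**
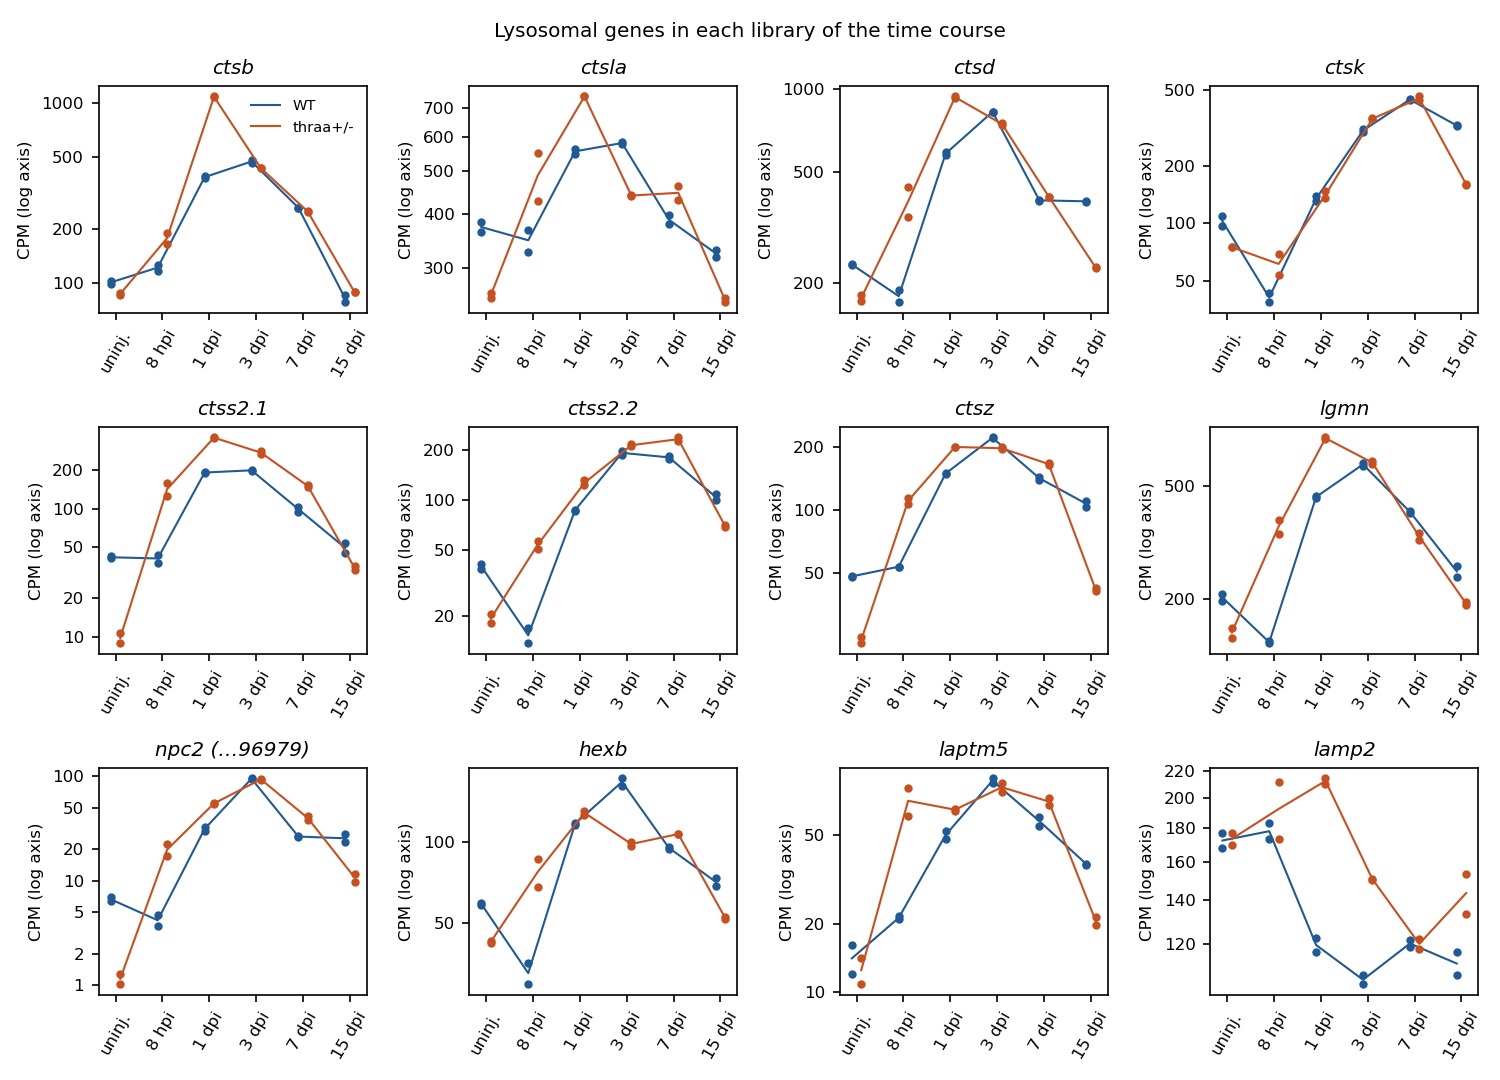
CPM (log axes) of 12 members in each time-course library, WT in blue and thraa+/- in orange, with points for the 2 libraries of a group and lines through their means. Most panels peak at 3 dpi in WT; *ctsb*, *ctsla*, *ctsd* and *lgmn* peak at 1 dpi in thraa+/-, and *ctsk* peaks at 7 dpi in both.

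Low-count cathepsins gave the largest fitted changes and the least certain ones. *ctsl.1* (ENSDARG00000003902), another cathepsin L gene, had no count in either uninjured WT library, 54 and 42 counts at 3 dpi and again none at 15 dpi. Measured against a floor of 3 counts in each library, its level in WT was at least 3.44-fold higher by 8 hpi, and by 3 dpi at least 8.36-fold higher. The thraa+/- libraries had 2 and 0 counts uninjured and 132 and 129 counts at 8 hpi, the highest of all libraries. *ctsll*, a cathepsin L-like gene at 10.7 CPM or less in all libraries, rose from 7 to 15 dpi in WT by 1.88 ± 0.25 (adjusted p = 3.1e-08). It was lower in thraa+/- than uninjured at 1, 3 and 7 dpi by 1.00 to 1.25, calls that were lost without uninjured replicate 1 (−0.69, −0.62 and −0.89) and without replicate 1 of the injured group (−0.93, −0.83 and −0.87), and that total counts reduced to −0.51, −0.23 and −0.35. *ctss1*, another cathepsin S gene, had 1 and 4 counts in uninjured WT and 19 and 32 counts at 1 dpi. *ctsf* and *ctso*, further cysteine cathepsins, were not called at any time in either genotype.

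The proton pump has a V1 sector that splits ATP and a V0 sector that carries protons across the membrane. In WT, V1 subunits were called higher for 3 of 12 tested genes at 1 dpi and 6 at 3 dpi, and V0 subunits for 1 of 8 at both times, against 14.8% and 20.8% of all genes. In thraa+/- 6, 8 and 6 V1 genes were higher at 8 hpi, 1 and 3 dpi, and 3, 2 and 2 V0 genes, against 17.5%, 16.8% and 19.2% of all genes. The V1 genes called higher at 8 hpi in thraa+/- included both *atp6v1a* genes (catalytic subunit A), *atp6v1b2* (13443; subunit B), both *atp6v1c1* genes and *atp6v1e1b* (a stalk subunit). *atp6v1a* (76318) rose most: it had 9.5 and 11.1 CPM in uninjured WT, 29.6 and 25.5 CPM at 8 hpi and 71.3 and 72.3 CPM at 3 dpi. In thraa+/- it had 4.27 and 6.72 CPM uninjured, 70.8 and 72.6 CPM at 8 hpi and 13.1 and 10.0 CPM at 15 dpi. It was above uninjured apex at every time in both genotypes, with log2 fold changes from 1.16 to 2.80 in WT and 1.09 to 3.75 in thraa+/-. The smallest of these, at 15 dpi in thraa+/-, was no longer a call without uninjured replicate 1 (0.83) or without 15 dpi replicate 1 (0.86).

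Both *atp6v1a* genes and both *atp6v1c1* genes were called higher at 8 hpi, 1 and 3 dpi in thraa+/- and at 3 dpi in WT, whereas other pairs for 1 subunit went different ways. *atp6v1b2* (13443) rose from 40.1 and 42.7 CPM to 174 and 154 CPM at 8 hpi in thraa+/-, while *atp6v1b2* (43465) fell from 20.1 and 21.0 CPM to 7.03 and 7.21 CPM. Their log2 fold changes were 1.99 and −1.53, a gap of 3.51 that no scaling of the libraries alters. Of the proteolipid genes, *atp6v0c* (57853) rose in WT from 217 and 231 CPM to 571 and 554 CPM at 3 dpi, and *atp6v0c* (36577) fell from 106 and 101 CPM to 32.8 and 33.8 CPM. The log2 fold changes were 1.33 and −1.64 ± 0.08 (adjusted p of the second 1.4e-21), the second falling short of a call with total counts (−0.84). At 3 dpi in thraa+/- the same genes gave 1.54 and −1.35. At 7 dpi the rising gene was back at 213 and 207 CPM in WT, whereas the falling gene was at its lowest, 31.6 and 29.6 CPM.

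**Figure D3:**
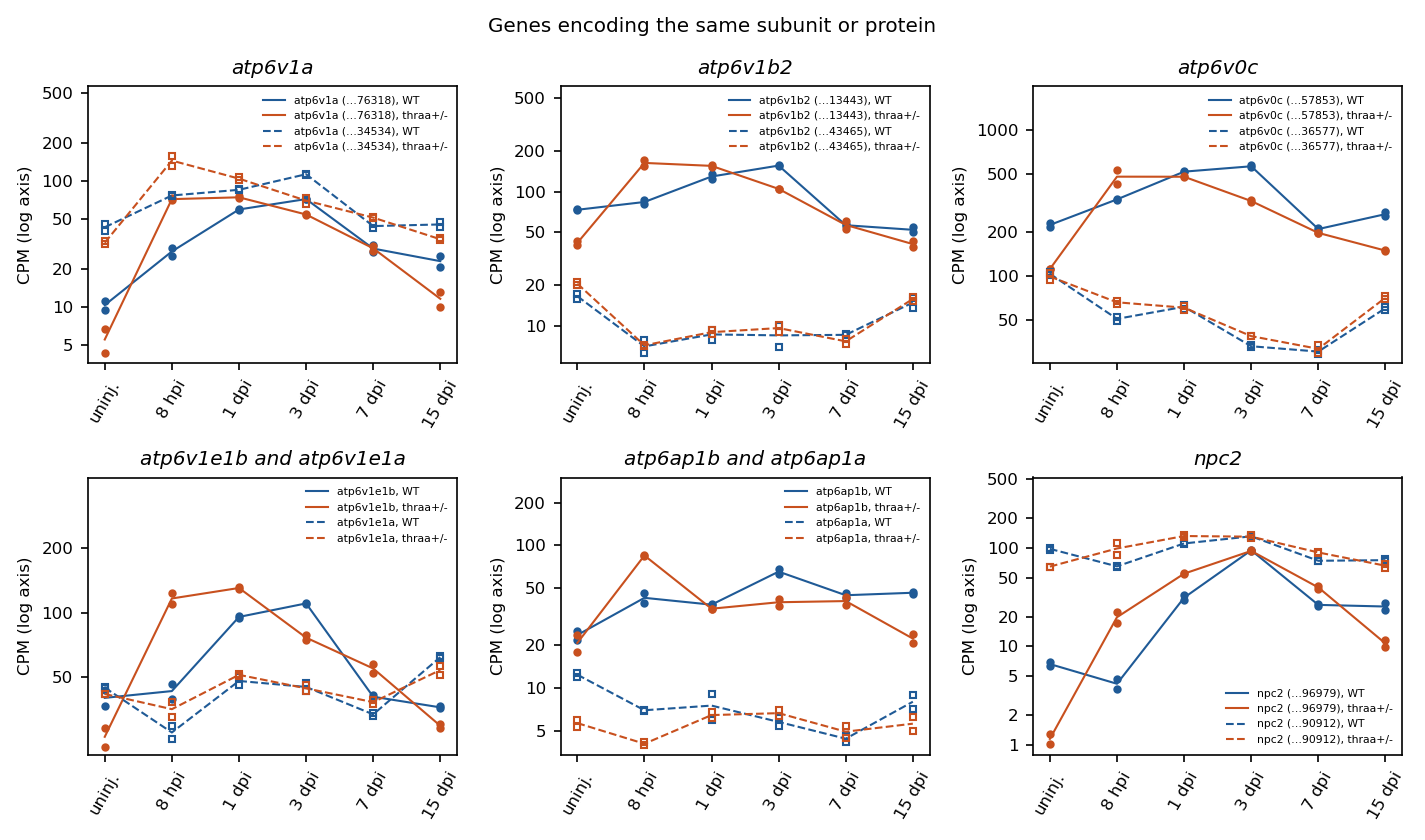
CPM (log axes) in each time-course library for 6 pairs of genes that encode the same subunit or protein, with solid lines and filled circles for one gene and dashed lines and open squares for the other, WT in blue and thraa+/- in orange. *atp6v1b2* (13443) and *atp6v0c* (57853) rise in the days in which *atp6v1b2* (43465) and *atp6v0c* (36577) fall, a fall that is smaller with total-count scaling.

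The accessory subunit Ac45 is encoded by *atp6ap1a* (ENSDARG00000041417) and *atp6ap1b* (ENSDARG00000037153), which also parted in WT. *atp6ap1b* rose from 25.2 and 21.8 CPM to 63.2 and 67.8 CPM at 3 dpi, while *atp6ap1a* fell from 12 and 12.8 CPM to 6.13 and 5.43 CPM. In TPM the fall of *atp6ap1a* was smaller, from 2.26 and 2.41 to 1.87 and 1.73. At 7 dpi *atp6ap1a* was lower by 1.49 ± 0.21 (log2, adjusted p = 6e-08; −0.64 and no call with total counts). In thraa+/- *atp6ap1a* lay between 3.97 and 6.99 CPM in all 12 libraries and was called at no time. *atp6v0d1*, which links the 2 sectors, was lower at 7 dpi in WT, with 55.4 and 52.2 CPM against 168 and 185 CPM (log2 fold change −1.72 ± 0.08, adjusted p = 1.5e-21; −0.87 with total counts). It was back at 102 and 116 CPM at 15 dpi (1.02 against 7 dpi), which was no call with total counts (0.68), without 15 dpi replicate 2 (0.93) or without 7 dpi replicate 2 (0.98). *atp6ap1lb*, a gene named as a further Ac45-like protein, had 10 and 8 counts in uninjured thraa+/- apex and none in either library at 8 hpi, at least 4.29-fold lower against a floor of 3 counts in each library. In WT it went from 13 and 11 counts to 0 and 1. *atp6v1h*, a regulatory subunit of V1, and *atp6ap2*, the prorenin receptor that is also an assembly factor of the pump, were not called against uninjured apex at any time.

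LAMP proteins coat the inner face of the lysosomal membrane. *lamp2* (ENSDARG00000014914), needed in mammals for autophagosomes to fuse with lysosomes, had 177 and 168 CPM in uninjured WT, 117 and 123 CPM at 1 dpi and 108 and 104 CPM at 3 dpi. Its thraa+/- level was 177 and 170 CPM uninjured and 211 and 215 CPM at 1 dpi. No *lamp2* change passed 2-fold, and none of the 4 tested LAMP genes was called higher at any time in either genotype. *lamp1* was lower at 1 dpi (−1.05 ± 0.20, adjusted p = 2.9e-05) and at 7 dpi (−1.05) in WT, calls that total counts (−0.46 and −0.20) and leaving out uninjured replicate 1 (−0.86 and −0.91) took away. The first was also lost without 1 dpi replicate 1 (−0.95).

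The LAPTM genes, for lysosomal membrane proteins that bind trafficking partners, split by member. *laptm5* (ENSDARG00000101785), expressed mainly in blood cells in mammals, had 12 and 16.1 CPM in uninjured WT, 89.4 and 85.1 CPM at 3 dpi and 37.3 and 36.8 CPM at 15 dpi. By 8 hpi in thraa+/- it reached 60.6 and 81.3 CPM from 14.1 and 10.8 CPM. It rose from 1 dpi in WT and from 8 hpi in thraa+/-, with log2 fold changes up to 2.64 and 2.71, both at 3 dpi. *laptm4a* was not called at any time, and *laptm4b* was lower in WT at 8 hpi, 1 and 7 dpi (−1.18, −1.01 and −1.02), none of which was a call with total counts (−0.65, −0.42 and −0.17). Without replicate 1 of uninjured WT the last 2 of these were −0.93 and −0.97, without 1 dpi replicate 2 the 1 dpi value was −0.92, and without 7 dpi replicate 1 the 7 dpi value was −0.93.

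The sterol carrier NPC2 is encoded by 2 tested genes of very different behaviour. *npc2* (96979) had 6.90 and 6.35 CPM in uninjured WT, 3.69 and 4.67 CPM at 8 hpi, 33.0 and 29.6 CPM at 1 dpi and 94.0 and 95.5 CPM at 3 dpi. In thraa+/- it had 1.02 and 1.28 CPM uninjured, 17.3 and 22.4 CPM at 8 hpi, 55.2 and 54.5 CPM at 1 dpi and 92.3 and 94.5 CPM at 3 dpi. The 3 dpi libraries of both genotypes overlapped, while the uninjured and 8 hpi libraries did not. Its log2 fold change at 3 dpi was 3.84 ± 0.13 in WT (adjusted p = 3.2e-27) and 6.33 ± 0.18 in thraa+/- (adjusted p = 3e-30). *npc2* (90912) was more abundant, 96.5 and 99.5 CPM in uninjured WT, and passed 2-fold only in thraa+/-, by 1.03 at 1 dpi and 1.01 at 3 dpi, or 1.00 and 0.97 without replicate 1 of the injured group, where both calls were lost. *npc1*, the membrane partner of NPC2, passed 2-fold against uninjured apex only at 1 dpi in thraa+/- (1.15), from 51.2 and 43.4 CPM to 104 and 107 CPM.

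Among the glycosidases, *hexb* (ENSDARG00000034368), the beta subunit of hexosaminidase, rose from 58.7 and 59.3 CPM in uninjured WT to 162 and 173 CPM at 3 dpi. In thraa+/- it peaked at 131 and 126 CPM at 1 dpi. *hexa*, the alpha subunit, was between 8.84 and 22.1 CPM in all libraries and was called at no time. *gusb*, beta-glucuronidase, rose at 8 hpi in both genotypes, with 21.3 and 17.8 CPM in WT against 8.40 and 10.4 CPM uninjured (1.06 ± 0.17, adjusted p = 1.6e-06) and a log2 fold change of 1.25 in thraa+/-. The WT call was lost without uninjured replicate 1 (0.91) or 8 hpi replicate 1 (0.92).

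From 7 to 15 dpi 2 members were higher and 3 lower in WT, against 6.21% and 15.5% of all genes, and 3 were higher and 12 lower in thraa+/-, against 8.67% and 16.5%. The 12 included 7 cathepsins, *laptm5*, *npc1*, *npc2* (96979), *hexb* and *atp6v1a* (76318). Total-count scaling gave 1 higher and 7 lower in WT, and none higher and 24 lower in thraa+/-. Over this interval the summed macrophage markers went from 3030 to 3071 CPM down to 1068 CPM in both thraa+/- libraries, and from 2630 to 2653 CPM down to 1362 to 1377 CPM in WT. Their part in these changes was not tested.

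Without injury, 5 of 57 members were called lower in thraa+/- than in WT apex and none higher, against 5.79% and 5.68% of all genes. The count was 8 without WT replicate 1 (all lower) or thraa+/- replicate 1 (7 lower and 1 higher), and 2 on log2(TPM + 1). By adjusted p alone, with no fold limit, 32 members were lower and none higher, against 16.2% and 15% of all genes. The 5 were *npc2* (96979; −2.51 ± 0.27, adjusted p = 5.7e-10), *ctss2.1* (−2.09 ± 0.13, adjusted p = 1.1e-15), *atp6ap1a* (−1.13), *ctss2.2* (−1.04) and *ctsz* (−1.01). In each of them the WT and thraa+/- libraries did not overlap. The median of members was −0.40 against 0.00 for all genes. Summed macrophage markers differed the same way, 741 to 748 CPM in WT and 408 to 410 CPM in thraa+/-, with 9 of 25 tested markers lower and none higher, and their part was not tested.

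At 8 hpi the order of the genotypes turned. Of the 57 members 18 were higher in thraa+/- and none lower, against 6.88% and 3.67% of all genes, with a median of 0.70 against −0.001 for all genes. They comprised 8 of 16 tested cathepsins, 5 of 12 V1 subunits, *atp6v0e1*, *lgmn*, *hexb*, *laptm5* and *npc2* (96979). *ctsl.1* was higher by 3.11 ± 0.39 (adjusted p = 2.3e-08), *npc2* (96979) by 2.24 ± 0.15 (adjusted p = 5e-16) and *ctss2.2* by 1.81 ± 0.09 (adjusted p = 8e-20). *lgmn* had 141 and 139 CPM in WT and 339 and 379 CPM in thraa+/- at this time, and *hexb* had 29.7 and 35.7 against 68.1 and 87.0 CPM. *ctsd* (1.13) fell short of a call without thraa+/- 8 hpi replicate 2 (0.94). *atp6v0e1* (1.05) and *atp6v1c1* (23967; 1.04) were no longer calls without WT 8 hpi replicate 1 (0.90 and 0.97), without thraa+/- 8 hpi replicate 2 (0.75 and 0.99) or with total counts (0.98 for both). *lamp2*, *npc1*, *gusb* and *laptm4a* differed by 0.11, −0.07, −0.17 and 0.05. Macrophage markers summed to 413 to 436 CPM in WT and 1113 to 1285 CPM in thraa+/-, pan-leukocyte markers to 281 to 300 and 831 to 889 CPM, and neutrophil markers to 657 to 727 and 1260 to 1480 CPM, and their part was not tested.

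The change from uninjured apex to 8 hpi itself differed between genotypes. This test of the difference called 29 of 57 members with a larger increase, or smaller decrease, in thraa+/- and none the other way, against 8.11% and 5.94% of all genes. The median was 1.04 against −0.02 for all genes. The 29 comprised 12 of 20 tested V-ATPase subunits, 9 of 16 cathepsins, *lgmn*, 2 of 4 accessory proteins, both *npc2* genes, 2 of 6 glycosidases and *laptm5*. Differences were largest for *npc2* (96979; 4.76 ± 0.31, adjusted p = 1.7e-16), *ctss2.1* (3.89 ± 0.16, adjusted p = 9.4e-21) and *ctss2.2* (2.85 ± 0.14, adjusted p = 9.1e-21). For *npc2* (96979) the changes were −0.67 in WT and 4.09 in thraa+/-. Leaving out any 1 of the 8 libraries left 23 to 31 calls, the lowest without thraa+/- 8 hpi replicate 2, and total counts left 27. Without that library *ctsk* (1.04), *ctsla* (1.01), *atp6ap2* (1.09) and *npc2* (90912; 1.2) were 0.84, 0.82, 0.92 and 0.99 and no longer calls. Of the 25 tested macrophage markers 21 were called in the same direction, as were 6 of 9 pan-leukocyte markers and 4 of 9 neutrophil markers, and their part was not tested. None of the 4 LAMP genes was called.

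**Figure D4:**
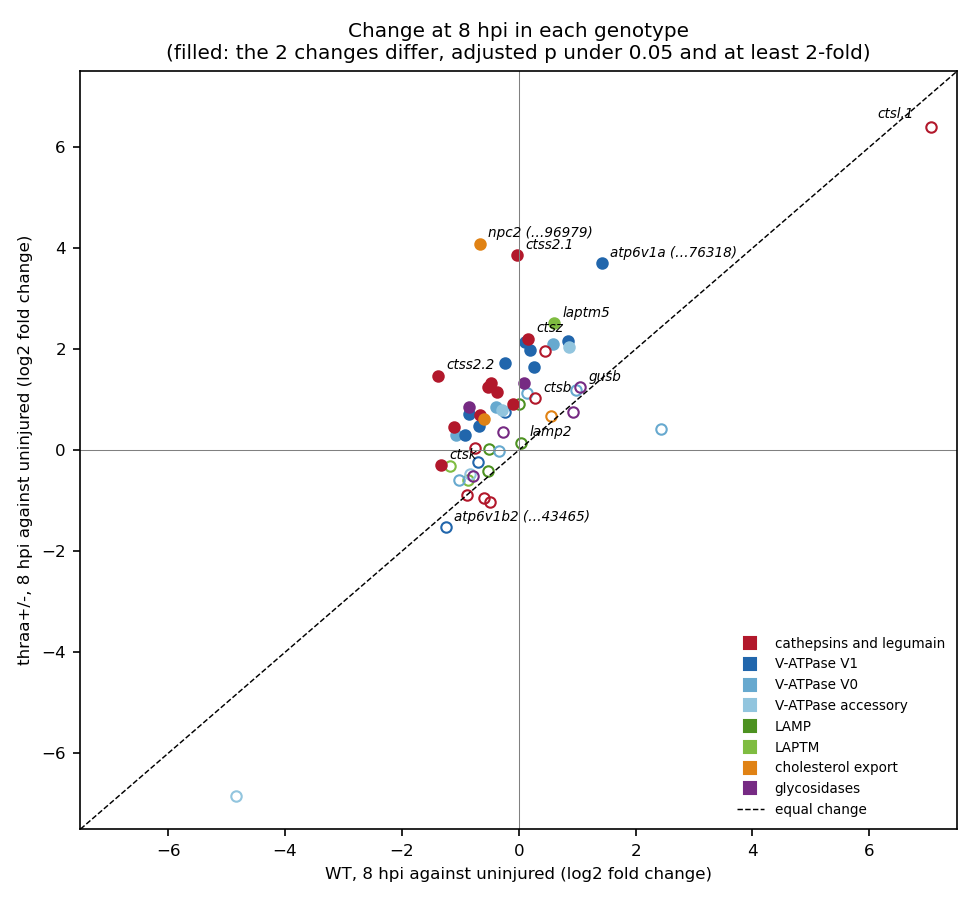
Log2 fold change from uninjured apex to 8 hpi in WT (x axis) and thraa+/- (y axis) for the 57 tested members, coloured by class, from TMM-scaled counts with 2 libraries a group. Filled points differ between genotypes with an adjusted p under 0.05 and by at least 2-fold (29 members), and all of them lie above the dashed line of equal change.

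Fewer members differed between genotypes at 1, 3 and 7 dpi. At 1 dpi *ctsb* (1.48 ± 0.07, adjusted p = 2e-21) and *ctsl.1* (1.16 ± 0.36, adjusted p = 0.016) were higher in thraa+/- and none was lower, against 4.9% and 2.69% of all genes (7.59% in all). The *ctsl.1* call was lost without either WT 1 dpi library or thraa+/- replicate 1 (1.17, 1.14 and 0.97). At 3 dpi the only call was *ctsbb*, a second cathepsin B gene (2.43 ± 0.85, adjusted p = 0.03, against 5.23% of all genes higher and 3.34% lower, 8.57% in all). It had 2 and 3 counts in WT and 12 and 17 in thraa+/-, and the call was lost when any of the 4 libraries was left out. At 7 dpi the only call was *ctsl.1*, with 17 and 5 counts in WT and 68 and 34 in thraa+/- (2.1 ± 0.44, against 2.94% higher and 3.31% lower, 6.25% in all).

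At 15 dpi 2 members were higher and 5 lower in thraa+/- than in WT, against 4.12% and 3.74% of all genes. The 5 were *ctsz* (−1.36 ± 0.07, adjusted p = 5.4e-20), *ctsll* (−1.25), *npc2* (96979; −1.24), *atp6ap1b* (−1.07) and *ctsk* (−1.02). *ctsk* had 325 and 326 CPM in WT and 159 and 161 CPM in thraa+/-, with no overlap. *atp6ap1b* was −0.97 without thraa+/- 15 dpi replicate 1. The 2 higher genes had few counts: *ctsl.1* had none in WT and 5 and 8 in thraa+/-, at least 2.53-fold higher, and *ctsbb* had 4 and 12 against 22 and 33, a call that was lost without WT replicate 1 (1.36) or thraa+/- replicate 2 (1.40). Macrophage markers summed to 1362 to 1377 CPM in WT and 1068 CPM in thraa+/-, with 3 of 25 lower, and their part was not tested.

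The change from uninjured apex also differed between genotypes after 8 hpi, and each of these tests shares its uninjured libraries with the others. It was larger in thraa+/- for 12 members at 1 dpi (5.81% of all genes), 4 at 3 dpi (4.67%), 9 at 7 dpi (6.39%) and 3 at 15 dpi (4.67%), and smaller for none, none, none and 1 (5.13%, 4.07%, 6.28% and 4.56%). At 1 dpi the largest were *npc2* (96979; 3.33), *ctss2.1* (3.00) and *ctsb* (1.70 ± 0.10, adjusted p = 1.5e-17). At 3 dpi they were *ctss2.1* (2.55), *npc2* (96979; 2.49), *atp6ap1a* (1.33) and *ctss2.2* (1.2), all of which were called lower in uninjured thraa+/- apex, while none of them differed by 2-fold between genotypes at 3 dpi. At 7 dpi the largest were *npc2* (96979; 3.1), *ctss2.1* (2.7) and *atp6v1c1* (35880; 1.62). At 15 dpi *ctss2.1* (1.57), *npc2* (96979; 1.28) and *laptm4b* (1.01) were larger and *ctsll* (−1.54) was smaller in thraa+/-. The first 2 had been called lower in uninjured thraa+/- apex, and at 15 dpi their thraa+/- libraries lay below those of WT. *laptm4b* missed 2-fold when WT 15 dpi replicate 2, WT uninjured replicate 1, thraa+/- 15 dpi replicate 1 or thraa+/- uninjured replicate 2 was left out (0.93 to 0.97).

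In uninjured entire hearts, sequenced as a separate set of libraries, thraa-/- and WT differed at 3 of 52 tested members. One was higher and 2 lower, against 9.66% and 9.54% of all genes, a share of members below that of all genes. There were 7 calls without either WT library and 1 without either thraa-/- library. *ctsla* was higher, with 249 and 229 CPM in thraa-/- and 147 and 146 CPM in WT (0.70 ± 0.10, adjusted p = 0.0016; 0.45 and no call with total counts). *atp6ap1a* was lower, with 5.1 and 4.4 against 10.2 and 8.0 CPM (−0.93 ± 0.22, adjusted p = 0.017), and *atp6v1a* (76318) was lower, with 3.2 and 5.0 against 7.2 and 7.9 CPM (−0.90 ± 0.26, adjusted p = 0.036). In each of the 3 the genotypes did not overlap. The calls of the last 2 were lost when either thraa-/- library was left out, with values of −0.60 to −1.26. In the apex of thraa+/- fish the same 3 genes differed from WT by −0.52 (*ctsla*), −1.13 (*atp6ap1a*) and −0.90 (*atp6v1a* (76318)), and only *atp6ap1a* was a call there. *ctss2.1*, *ctss2.2* and *ctsz*, all lower in the thraa+/- apex, were −0.31, −0.58 and −0.34 in entire thraa-/- hearts, and *npc2* (96979), the most lowered in that apex, was −1.55 ± 0.63 (adjusted p = 0.11, no call), with 10 and 23 counts in WT and 5 and 6 in thraa-/-. Scaled by total counts 9 members were lower and none higher. Macrophage markers summed to 623 CPM in both WT and 283 to 305 CPM in thraa-/- libraries, with 7 of 20 tested markers lower and none higher, and their part was not tested.

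**Figure D5:**
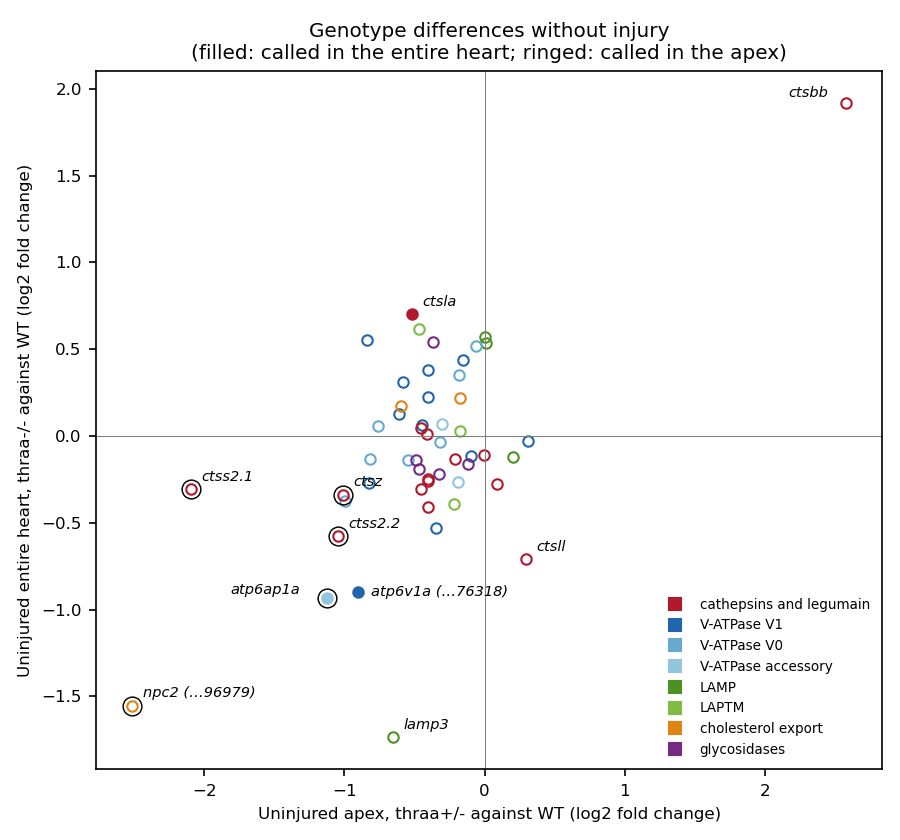
Log2 fold change between genotypes without injury for the members tested in both experiments, in the apex of thraa+/- fish (x axis) and in entire hearts of thraa-/- fish (y axis), each against its own WT with 2 libraries a group. Filled points are called in the entire heart and ringed points in the apex; *atp6ap1a* is both, while *ctsla* is higher in thraa-/- entire hearts and −0.52 in thraa+/- apex.

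Other lysosomal genes, listed by function, were read beside the members. Of 51 tested hydrolases and their activators outside the set, 23 were higher and none lower at 3 dpi in WT (20.8% and 14.4% of all genes), with a median of 0.81 against 0.18 for all genes, and 23 and none at 1 dpi in thraa+/- (16.8% and 13.8%). Examples at 3 dpi in WT were *dnase2*, the lysosomal DNase (2.42), *rnaset2*, a lysosomal RNase (2.17), *tpp1*, a peptidase (1.16), and *lipa*, the acid lipase (1.3). Of 48 further membrane proteins and transporters 12 were higher and 1 lower at 3 dpi in WT, the higher share near that of all genes, among them *tcirg1* (ENSDARG00000105142), which encodes a further a-subunit of the V0 sector (2.42; 2.71 at 1 dpi in thraa+/-), *cd63* (1.23) and the calcium channel gene *mcoln1* (ENSDARG00000002285; 1.61). Of 33 tested genes for sorting and delivery to lysosomes 4 were higher and 3 lower, both shares below those of all genes, including *grna*, which encodes a progranulin (3.23), and *m6pr*, a mannose 6-phosphate receptor (1.96). With total counts the WT calls at 3 dpi were 34, 29 and 19 higher for these 3 lists and none lower.

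Regulators and autophagy genes were called in both directions. Of 24 tested MiT/TFE factors, which switch on lysosomal genes in mammals, and lysosomal mTORC1 genes, 3 were higher and 6 lower at 3 dpi in WT (20.8% and 14.4% of all genes), with a median of −0.11. *tfec* (3.02) and *mitf* (2.62) were higher, and *rragd*, a Rag GTPase (−2.48), *ulk2*, an autophagy kinase (−2.82), and *fnip1* (−2.02) were lower. Of 31 tested autophagosome genes 2 were higher and 3 lower, with a median of −0.15, and the lower ones included *map1lc3a*, an LC3 gene (−1.28), and *gabarapl2* (−1.08). With total counts the splits were 7 higher and 4 lower for the regulators and 11 higher and 1 lower for the autophagosome genes. Cystatins, inhibitors of cysteine cathepsins, were higher at 1 dpi in thraa+/- for 4 of 5 genes, against 16.8% of all genes. For the change at 8 hpi between genotypes, 15 of 51 hydrolases were larger and 1 smaller in thraa+/-, 14 of 48 membrane proteins were larger and 3 smaller, and of the autophagosome genes 1 was larger and 1 smaller, against 8.11% and 5.94% of all genes.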

How the data were processed

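RNA was sequenced as 150-base paired reads from 24 time-course libraries and 4 entire-heart libraries. Per the labels and the study's methods, the authors trimmed reads with Trim Galore (0.6.10), aligned them to GRCz11 with STAR (2.7.9) and quantified genes with RSEM (1.3.3), and deposited expected counts and TPM (length-scaled transcript abundance) for each gene. The annotation release was not given in the sources used here.

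Expected counts were rounded to whole numbers, filtered with filterByExpr, TMM-scaled and fitted with edgeR (4.0.16, in R 4.3.3) by the robust quasi-likelihood test, all groups of an experiment sharing the fit. Standard errors are the log2 fold change divided by the square root of F. CPM use TMM-scaled library sizes. The change from uninjured to each time was compared between genotypes as an interaction. On simulated counts of 17837 genes for the WT 7 dpi comparison, 2-fold and 4-fold changes were planted in 100 genes each. Genes with few counts were left out of this planting, so recovery of low-count members is not known. Of the planted changes, 51% of the 2-fold and 100% of the 4-fold ones were recovered, a 2-fold change lying at the limit for a call. Calls on unplanted genes numbered 4. A like simulation of the entire hearts (15793 genes) recovered 70% and 98%, with 25 calls on unplanted genes. No shift of the median gene was planted, so these runs do not check the scaling.

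With 2 libraries a group, an exact permutation test cannot go below p = 0.333, so all p-values come from the fits across genes. Pools of fish are the replicates. Standard errors come from the quasi-likelihood fit and include the spread between libraries. Floors set 3 counts in each library of the lower group and take no account of error in the higher group. Named members were the 5 highest by TPM, the 3 largest called changes in each direction per comparison (all called, up to 6, for genotype comparisons), and a list of representative genes. Members and lists were chosen with earlier results of these data known, and paralogs and low-count genes outside this rule were named after their values were seen. Genes with a shared symbol could share reads. Alternatives were DESeq2 (1.42.0), total-count scaling, other count filters, only the compared groups, limma (3.58.1) on log2(TPM + 1) and log2(TPM + 0.1), the replicate block, and each library left out. One member is counted among the members but not reported here by name. Sequences of the genes were not used here.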

Additional observations from a re-analysis of the deposited data

Results flagged for a closer look

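The change after injury differed between genotypes for 29 members at 8 hpi, 12 at 1 dpi, 4 at 3 dpi, 9 at 7 dpi and 4 at 15 dpi. The test was the edgeR interaction test with Benjamini-Hochberg adjustment. It called 14.1%, 10.9%, 8.74%, 12.7% and 9.23% of all tested genes at these times. Counting both directions, the share of the 57 tested members at 3 and 15 dpi was below that of all genes. All 5 tests use the same 4 uninjured libraries, so they are not independent. *npc2* (96979) and *ctss2.1* differed at every time, all changes being larger in thraa+/-. For *npc2* (96979) the differences were 4.76, 3.33, 2.49, 3.1 and 1.28 on the log2 scale at 8 hpi, 1, 3, 7 and 15 dpi. For *ctss2.1* they were 3.89, 3.00, 2.55, 2.7 and 1.57. Both genes were called lower in uninjured thraa+/- apex, a difference that enters all 5 tests. Neither was called between genotypes at 1, 3 or 7 dpi. At 15 dpi *npc2* (96979) had 11.7 and 9.77 CPM in thraa+/- against 27.7 and 23.2 CPM in WT. *ctss2.1* then had 33.4 and 35.5 against 53.9 and 44.9 CPM. *ctss2.2* differed by 2.85 at 8 hpi and 1.2 at 3 dpi. At 1 and 7 dpi only the 3 largest called differences are named, and *ctss2.2* was not among them. Its mean went from 19.2 CPM uninjured to 126 CPM at 1 dpi and 232 CPM at 7 dpi in thraa+/-. In WT it went from 39.6 CPM to 86.6 and 180 CPM.

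Not every difference called by this test is named in this section. Besides those of the genes above, the named differences were 1.70 for *ctsb* at 1 dpi and 1.33 for *atp6ap1a* at 3 dpi. The rest of the named ones were 1.62 for *atp6v1c1* (35880) at 7 dpi, 1.01 for *laptm4b* at 15 dpi and −1.54 for *ctsll* at 15 dpi. Of the genes named in this paragraph only *ctsll* changed less, or fell more, in thraa+/-. The *atp6ap1a* and *ctsb* values arose differently: *atp6ap1a* was called lower in uninjured thraa+/- apex (−1.13) and differed by 0.20 at 3 dpi, whereas *ctsb* differed by 1.48 between genotypes at 1 dpi itself.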

How the results depend on the processing

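Depth, 2 libraries a group and the 2-fold limit bound these counts, and low-count members such as *ctsl.1* and *ctsbb* are the least certain. None of 214 named values changed direction under the alternatives that gave it a value, which were all but 2 for every value: the minimum of 10 counts gave 202 and the fit of only the compared groups 210. Most of these values were calls to begin with, so a reversal was unlikely, and changes short of a call were hardly examined. DESeq2 took 6 of them below the threshold, total counts 33, log2(TPM + 1) 46 and log2(TPM + 0.1) 39. The minimum of 10 counts took 10 below it, no filter beyond 1 count 6, and the fit of only the compared groups 5. The causes were not tested.

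By adjusted p alone, without a fold limit, members called were 42, 42, 45, 41 and 38 in WT and 48, 47, 48, 43 and 25 in thraa+/- at 8 hpi to 15 dpi, 33 and 44 from 7 to 15 dpi, 32, 40, 27, 22, 20 and 36 between genotypes from uninjured to 15 dpi, 35, 19, 31 and 20 for the interaction from 1 dpi, and 12 in entire hearts. With total counts they were 26, 37 and 15 in WT at 1, 3 and 15 dpi, 36 and 12 in thraa+/- at 7 and 15 dpi, 8 and 24 from 7 to 15 dpi, and 9 in entire hearts. Limma on log2(TPM + 1) called 7 in WT at 8 hpi, 8 in thraa+/- at 15 dpi, 2, 1 and 0 between genotypes uninjured and at 1 and 3 dpi, 2 and 2 for the interaction at 3 and 15 dpi, and 11 in entire hearts. On log2(TPM + 0.1) it called 26 and 12 in WT at 1 and 15 dpi, 36 and 13 in thraa+/- at 7 and 15 dpi, 23 from 7 to 15 dpi in thraa+/-, 1 and 0 between genotypes at 1 and 3 dpi, and 12 in entire hearts. At least 10 counts in every library left 3 calls from 7 to 15 dpi in WT and 1, 0 and 0 between genotypes at 1, 3 and 7 dpi. Fitting only the compared groups gave 2 between genotypes at 7 dpi. By adjusted p alone between uninjured genotypes, 15% of all genes were higher and 16.2% lower. For the other counts of this paragraph the share of all genes was not taken, so they are not read against it.

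With 1 library left out, calls ranged over 10 to 12, 13 to 19, 22 to 26, 14 to 20 and 6 to 8 in WT, and 22 to 28, 28 to 32, 25 to 28, 21 to 24 and 4 to 5 in thraa+/-. They ranged over 4 to 6 and 13 to 15 from 7 to 15 dpi, and over 6 to 8, 15 to 20, 1 to 2, 0 to 0, 1 to 2 and 6 to 8 between genotypes. For the interaction they ranged over 23 to 31, 11 to 17, 4 to 4, 8 to 10 and 3 to 4. In entire hearts they ranged from 1 to 7: 7 without either WT library and 1 without either thraa-/- library. Between uninjured genotypes 8 members were called without replicate 1 of WT or of thraa+/-.

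The replicate numbers did not pair the samples: deviations of same-numbered libraries correlated at −0.03 to 0.20 over 66 pairs of groups, 1 of them over 0.1. With the replicate block the counts were as without it (29 at 8 hpi for the interaction, 18 between genotypes at 8 hpi, 24 in WT at 3 dpi), and no named call changed.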
